A study of Mus musculus with 4 samples.

Results

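Of 103288 hypersensitive regions obtained by merging the lists of 4 DNase-seq libraries, 1362 (1.32%) were listed in both libraries of cells given estradiol and in neither library of cells without it. These estradiol-only sites were chosen by presence alone: overlapping or touching regions were joined, and a merged region was kept if it held a region from the Dex+E2 list and a region from the E2 list and none from the Dex or the untreated list. The cells were 7438 cells, a mouse mammary line in which a GFP-tagged glucocorticoid receptor (GFP-GR) and a Cherry-tagged estrogen receptor (Cherry-ER) are made from a tetracycline-regulated promoter, so the receptors studied are transgene products. All 4 conditions share this line, plating in charcoal-dextran serum 48 h before the experiment and the withdrawal of tetracycline 24 h before hormone. Cells then received 100 nM dexamethasone plus 100 nM estradiol (Dex+E2), 100 nM estradiol (E2) or 100 nM dexamethasone (Dex) for 30 min, or no hormone (untreated). Each condition had 1 library, so no difference between conditions could be set against a spread between replicates of a condition. No test of a treatment was run, and the intervals below cover counting error only.

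Estradiol binds the estrogen receptor, a nuclear receptor that attaches to DNA as a dimer at inverted repeats known as estrogen response elements and recruits coactivators and chromatin remodelling complexes. DNase I cuts DNA where nucleosomes are displaced or loosened, so a hypersensitive site marks a stretch of accessible regulatory DNA such as an enhancer or promoter. The glucocorticoid receptor, which dexamethasone activates, works through related complexes at its own response elements, and in mammary cells both receptors bind largely to distal enhancers. Most binding of steroid receptors is known to fall on chromatin that is accessible before hormone, and a minority of sites opens only once hormone is present. Absence from a list means that a region did not reach the authors' threshold in that library and is no evidence of closed chromatin. Positions are those of the deposited lists in mm9. Genes and DNA sequence at the sites are not analysed here, nor was the labelled cell type checked against marker genes. The lists held 50061 regions after Dex+E2, 35496 after E2, 51251 after Dex and 65879 in untreated cells, and the regions common to all 4 had median densities of 15.4, 10.2, 14.7 and 30.1 in these libraries. The list of E2 was thus the shortest and that of untreated cells the longest.

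The estradiol-only sites made up 2.85% of the 47766 merged regions listed after Dex+E2, 4.03% of the 33806 listed after E2 and 5.64% of the 24166 listed after both. The maximum tag density of a site is the height of its summit in the authors' scaled tags, and 1 tag was worth 0.227 in the Dex+E2 and 0.200 in the E2 library. The median density of the sites was 8.17 (36 tags) after Dex+E2 and 6.60 (33 tags) after E2. The quartiles were 5.67 and 12.0 after Dex+E2 and 5.25 and 8.20 after E2, and the extremes were 2.04 and 47.0 after Dex+E2 and 2.20 and 44.4 after E2. They were weak beside regions found in all 4 lists, whose medians are given above. They were stronger than regions of a single list, with medians of 5.22 in the Dex+E2 list alone and 5.00 in the E2 list alone. Sites listed after Dex+E2 and Dex only had medians of 7.49 after Dex+E2 and 8.08 after Dex. Denser regions pass the threshold in more libraries, so the order of these medians is largely set by the selection. A density of 20 was reached by 71 of the sites (5.21%) after Dex+E2 and by 5 (0.367%) after E2. Over all merged regions of the 2 lists it was reached by 16.7% after Dex+E2 and 10.7% after E2.

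The 10 sites with the highest smaller value of both densities show how strong the set could be. Leaving aside 2 unusual regions described below, the densest was chr15:101337375-101338278, which reached 44.5 (95% Poisson interval 38.5 to 51.1) after Dex+E2 and 26.8 (22.5 to 31.7) after E2, a ratio of 1.66 (1.33 to 2.08). At chr14:19549201-19550098 the density was 43.6 (37.6 to 50.2) after Dex+E2 and 21.6 (17.7 to 26.1) after E2, and at 2.02 (1.59 to 2.58) its ratio was the highest of these 10. This site stood 37786 bp from the nearest region listed without estradiol, and another estradiol-only site lay 6526 bp away. The site chr17:14952513-14953688 had 37.2 after Dex+E2 and 19.0 after E2 (1.96-fold, 1.51 to 2.55), and chr4:45916009-45916910 had 34.3 after Dex+E2 and 19.8 after E2 (1.73-fold, 1.33 to 2.25). Smaller differences were seen at chr8:124717692-124718495 (29.3 after Dex+E2, 18.2 after E2), chr5:125627595-125628411 (27.7 after Dex+E2, 18.4 after E2) and chr5:118854205-118854961 (30.2 after Dex+E2, 22.8 after E2). Besides the 2 unusual regions, 1 of the 10 was nearly level between the libraries. This site, chr4:46054178-46055078, had 19.3 after Dex+E2 and 18.4 after E2, and the interval of its ratio, 0.771 to 1.42, included 1. As deposited, 7 of the 10 had a ratio whose interval lay above 1, all of them higher after Dex+E2. The share over all merged regions in both lists was 48.1%. The 10 were picked for high densities in both libraries, and more tags give narrower intervals. Relative to each library's typical density, explained below, the log2 ratios of the 10 lay between −0.63 and 0.42.

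**Figure D1:**
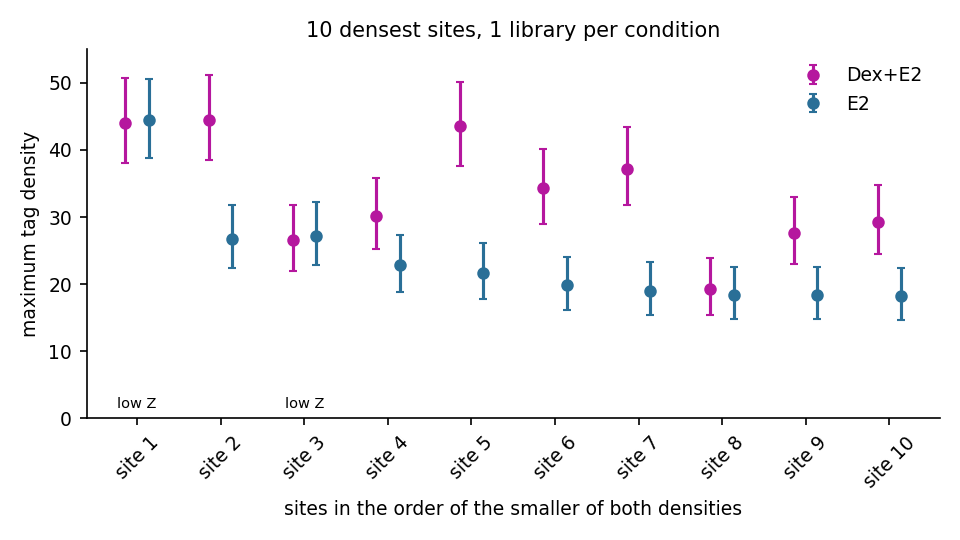
Maximum tag density (y axis) of the 10 estradiol-only sites with the highest smaller density (x axis, site 1 to site 10), after Dex+E2 (left point of each pair) and after E2 (right point), with 95% Poisson intervals of the summit tags. Sites 1 and 3, marked low Z, have nearly equal densities in both libraries (44.0 and 44.4, 26.5 and 27.2), and the Dex+E2 point lies above the E2 point at the other 8.

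Sites 1 and 3 of this ranking combined high density with low scores. The region chr11:3022057-3022517 had a density of 44.0 after Dex+E2 and 44.4 after E2, yet Z scores of only 6.47 after Dex+E2 and 7.54 after E2. Likewise chr8:19960809-19961142 had densities of 26.5 after Dex+E2 and 27.2 after E2, with Z scores of 6.38 after Dex+E2 and 6.98 after E2. By contrast, the Z scores of chr15:101337375-101338278 were 53.6 after Dex+E2 and 34.2 after E2. The Z score sets a region against the background of its own library, by a model that the sources used here do not give. In all, 5 of the 1362 sites had a Z score under 0.5 times their density in both libraries, against 50 of the 24166 regions in both lists. The other 3 were chr8:19956185-19956565, chr17:3007983-3008354 and chr1:90170389-90170866, with densities of 13.4 to 15.9 after Dex+E2 and 11.8 to 15 after E2. By position, 12 sites (0.881%, 0.505 to 1.53) lay within 200 kb of the first listed region of their chromosome, against 107 (0.443%, 0.367 to 0.535) of the regions in both lists. Without both kinds, 1347 sites were left, with a median log2 ratio of Dex+E2 over E2 of 0.27 and 8.61% at least 2-fold higher after Dex+E2, against 8.52% with them. The limits of 0.5 and 200 kb were chosen after the data were examined.

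Just inside the authors' threshold stood chrX:159441629-159442056, chr16:93963298-93963770 and chr15:100221399-100221870, with Z scores of 5.26 each after E2, densities of 4.54, 6.35 and 6.81 after Dex+E2, and 3.20, 4.80 and 5.20 after E2. Just outside were chr8:35884282-35884779, chr6:37542365-37542907 and chr1:72511410-72512048, which the untreated list held with Z scores of 4.95, 4.96 and 4.96 and densities of 6.12, 5.36 and 6.89. After Dex+E2 these had 5.67, 5.67 and 11.1, and after E2 5.60, 4.60 and 7.60. They have the lowest Z scores over the Dex and untreated lists together. The lowest Z score of any region was 5.18 in the Dex list and 4.95 in the untreated list, so this ranking favours the untreated list. The densities of these 3 members and 3 non-members overlapped, and 1746 merged regions were kept out by the untreated list alone and 371 by the Dex list alone.

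Strong sites were found in both libraries with estradiol far more often than weak ones. Among 13281 sites listed after Dex+E2 and in neither library without estradiol, the share that was also listed after E2 was 4.17% below a density of 5, 18.1% between 7 and 10, 50.9% between 10 and 15, and 70.9% between 15 and 20. At a density of 20 or more, 71 of 73 such sites (97.3%, 90.5 to 99.2) were listed after E2 as well. In the opposite direction, the 8562 sites listed after E2 and in neither library without estradiol were also listed after Dex+E2 in 6.94% of cases below a density of 5, in 52.2% between 7 and 10, and in 84.0% (77.2 to 89.1) between 10 and 15. Over all densities, 1362 of these 8562 (15.9%, 15.1 to 16.7) appeared after Dex+E2. The corresponding share was 58.9% for E2 regions listed in untreated cells and not after Dex, 48.9% for those listed after Dex and not in untreated cells, and 96.1% for those in both. The mirror group, 1984 sites listed after Dex+E2 and Dex only, made up 11.8% of the 16765 Dex sites missing from the untreated and E2 lists. All 128 of those Dex sites with a density of at least 20 were listed after Dex+E2. Strong sites of either single-hormone library were thus mostly seen again after co-treatment. Of only 7 E2 sites at 20 or more, 5 (71.4%, 35.9 to 91.8) were listed after Dex+E2. These 5 include the regions chr11:3022057-3022517 and chr8:19960809-19961142, set apart above for their low Z scores.

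**Figure D2:**
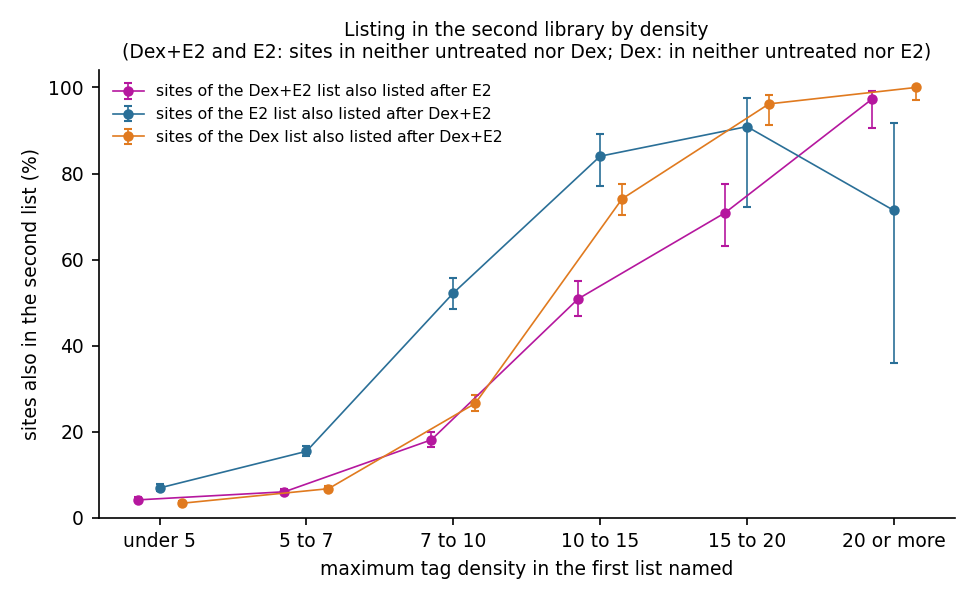
Share of sites also found in a second list (y axis, %, with Wilson 95% intervals) by maximum tag density in the first list (x axis), for sites of the Dex+E2 list looked up in the E2 list, sites of the E2 list looked up in the Dex+E2 list, and sites of the Dex list looked up in the Dex+E2 list. The share climbs from under 10% below a density of 5 to 97.3% and 100% at 20 or more for the Dex+E2 and Dex lists, and the last E2 class holds only 7 sites.

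As merged, the sites were wider than the typical merged region and narrower than regions shared by more lists. The regions had a median width of 548 bp after Dex+E2 and 472 bp after E2, and 923 of the 1362 (67.8%) were wider after Dex+E2. Their centres differed by a median of 49.5 bp, and 77.5% were within 100 bp of each other. The rule required regions of both libraries that overlap or touch, so close centres are largely set by it. The offset was not computed for other regions in both lists. Each library contributed a single region at 1350 sites. The merged width had a median of 597 bp (quartiles 503 and 681), against 619 bp for the mirror group of sites in the Dex+E2 and Dex lists only, 690 bp for sites in all 3 hormone lists but not untreated, and 1009 bp for regions in all 4 lists. Over all merged regions the median was 478 bp, and sites of a single list had 317 bp in the Dex+E2 list alone and 297 bp in the E2 list alone. A merged width spans every region that was joined, so it tends to grow with the number of lists. The order of these medians is therefore partly set by the merging. The summit stood 4.01 times above the average density of its region after Dex+E2 and 4.0 times after E2, near the 4.04 after Dex+E2 and 3.80 after E2 of regions in all 4 lists. The widest site was chr15:25365423-25367066 at 1643 bp, with a density of 12.7 after Dex+E2 and 6.20 after E2. Next came chr15:81753501-81755070 (1569 bp, 9.07 after Dex+E2 and 8.80 after E2) and chr7:53371183-53372687 (1504 bp, 11.8 after Dex+E2 and 8.40 after E2). At chr10:75050425-75051655 the region was 1230 bp wide after Dex+E2 and 541 bp wide after E2, with densities of 25.6 after Dex+E2 and 6.80 after E2.

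Most of the sites had a similar or moderately higher deposited density after Dex+E2 than after E2. As deposited, 1044 of the 1362 sites (76.7%) were higher after Dex+E2 than after E2, but so were 89% of all merged regions listed in both. The median log2 ratio of Dex+E2 over E2 was 0.27 (interval of the median 0.23 to 0.30), against 0.52 over all regions in both lists and 0.56 over regions in all 4 lists. In the sets of regions most like the sites it was lower. It was 0.18 for the 1746 regions listed in untreated cells as well but not after Dex. It was also 0.18 for the 371 listed after Dex as well but not in untreated cells. At least 2-fold higher after Dex+E2 were 116 sites (8.52%, 7.15 to 10.1), beside 12.5% of all regions in both lists. None was 2-fold lower, beside 0.0248%. Sites had to be listed after Dex+E2, so any that fell below the threshold there were left out of the set. The count of 2-fold lower sites is therefore limited by the rule. The interval of the ratio lay above 1 at 316 sites (23.2%), beside 48.1% of all regions, and below 1 at 1 site, beside 0.24%. Since the authors' scaling total is not stated, the ratio was also computed after dividing by library medians over the regions in all 4 lists, which subtracts 0.60 on the log2 scale. On that scale the median of the sites was −0.33, so the direction of the group depends on the scaling. There 11 sites (0.808%) were 2-fold higher and 22 (1.62%) 2-fold lower, beside 1.66% higher and 1.2% lower of all regions in both lists. In the mirror group, the median log2 ratio of Dex+E2 over Dex was −0.11, against 0.01 over the 29066 merged regions in the Dex+E2 and Dex lists.

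**Figure D3:**
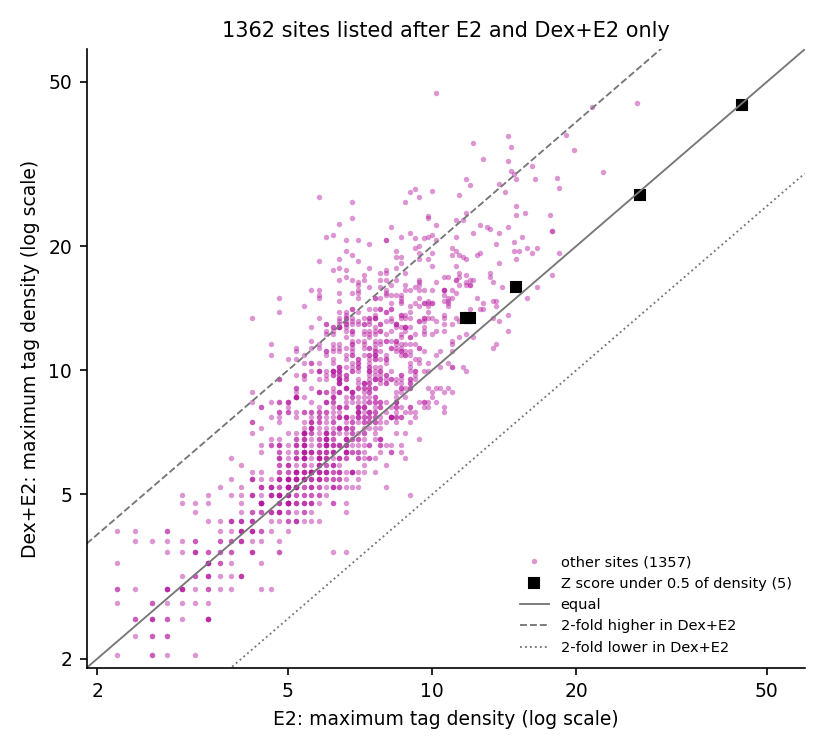
Maximum tag density after Dex+E2 (y axis) against that after E2 (x axis) for the 1362 estradiol-only sites, on log scales, with lines for equal and for 2-fold higher or lower densities. Most sites lie between the lines for equal density and 2-fold higher, none lies below the 2-fold lower line, and the 5 sites with a Z score under 0.5 times their density (squares) lie close to equality.

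Weak and strong members differed in this ratio. Sites were grouped by the geometric mean of both densities and set beside the other regions in both lists of the same class. Below a mean of 5, the median log2 ratio was 0.00 for the 224 sites and 0.04 for the others. Between 5 and 7 it was 0.12 (0.07 to 0.13) for 388 sites and 0.23 (0.23 to 0.24) for the others, and between 7 and 10 it was 0.40 for 450 sites and 0.45 for the others. Between 10 and 15 the median was 0.64 (0.57 to 0.72) for 232 sites and 0.59 (0.58 to 0.61) for the others, and between 15 and 20 it was 0.64 (0.45 to 0.91) for 47 sites and 0.65 (0.63 to 0.66) for the others. At 20 or more it was 0.95 (0.69 to 1.16) for 21 sites and 0.67 (0.66 to 0.68) for 5354 others, although 2 of the 21 were the level low-Z regions. The intervals of sites and others did not overlap between 5 and 7, where the sites were lower, and at 20 or more, where the sites were higher by a narrow margin, and overlapped in the other 4 classes. The share at least 2-fold higher after Dex+E2 was 23.3% (18.3 to 29.1) of the sites and 16.8% (15.9 to 17.8) of the others between 10 and 15. At 20 or more it was 9 of 21 (42.9%, 24.5 to 63.5) against 15.8% (14.8 to 16.8). The classes were set after the data were examined, both densities define the class and the ratio, and both libraries chose the sites, so these are descriptions of the libraries.

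**Figure D4:**
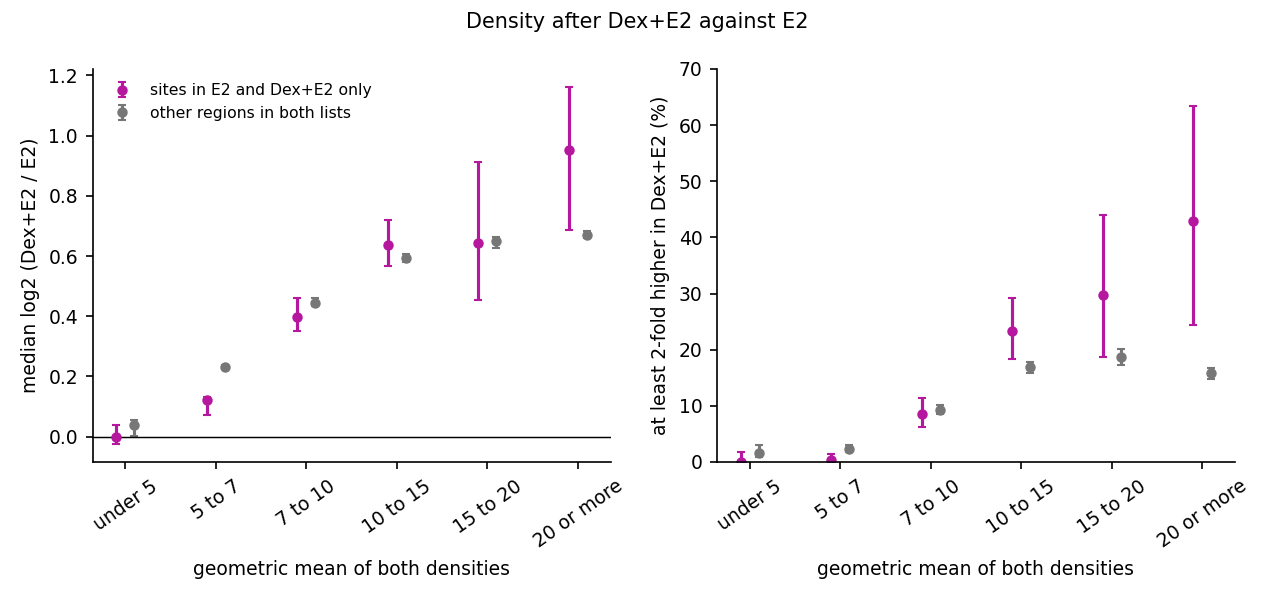
Left, median log2 ratio of Dex+E2 over E2 as deposited (y axis, with binomial 95% intervals of the median) and right, share of regions at least 2-fold higher after Dex+E2 (y axis, %, with Wilson 95% intervals), both by the geometric mean of the densities (x axis), for the estradiol-only sites and for other regions in both lists. Below a mean of 7 the estradiol-only sites have the lower values, and at 20 or more they reach 0.95 and 42.9% against 0.67 and 15.8%.

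Among sites whose smaller density was in the upper quartile, at 8.0 or more, the ratio was highest at chr12:16770996-16772312, with 47.0 (40.8 to 53.8) after Dex+E2 and 10.2 (7.59 to 13.4) after E2, or 4.60-fold (3.38 to 6.39). The region there was 1316 bp wide after Dex+E2 and 568 bp after E2. The next 4 were about 3-fold higher: chr11:95404097-95404966 had 27.0 after Dex+E2 and 9.0 after E2 (3.0-fold, 2.11 to 4.33), and chr2:173178899-173179720 had 27.5 after Dex+E2 and 9.20 after E2 (2.98-fold). The remaining pair were chr10:93958099-93959004, at 35.6 after Dex+E2 and 12.2 after E2 (2.92-fold), and chr17:66015719-66016491, at 25.6 after Dex+E2 and 8.80 after E2 (2.91-fold). Relative to the library medians these 5 log2 ratios were 0.95 to 1.61. At the other end, chr6:14173192-14173846 had 8.17 after Dex+E2 and 10.6 after E2 (0.771-fold, 0.490 to 1.20), and chr6:143743773-143744407 had 8.85 after Dex+E2 and 11.0 after E2 (0.804-fold, 0.520 to 1.23). The 3 others of lowest ratio, chr11:103121689-103122327, chr9:119973271-119973867 and chr11:119058996-119059600, had ratios of 0.823, 0.833 and 0.835, and all 5 of these intervals included 1. Relative to the medians the 5 log2 ratios lay between −0.97 and −0.86.

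The sites were spread over all 20 chromosomes that the lists cover. Chromosome 4 held 105, chromosomes 2 and 11 held 101 each, and chromosome X held 19. As a share of merged regions listed both after Dex+E2 and after E2, the sites ranged from 3.32% on chromosome X and 4.03% on chromosome 19 to 7.37% on chromosome 17 and 7.83% on chromosome 12, with 5.64% overall. They lay close to chromatin that was also listed without estradiol: the median gap to the nearest Dex or untreated region was 4718 bp, 255 sites (18.7%, 16.7 to 20.9) had one within 1 kb and 974 (71.5%, 69.1 to 73.8) within 10 kb. Within 10 kb the share was 50.4% for sites of the Dex+E2 list alone and 48.1% for sites of the E2 list alone. Another estradiol-only site was found within 50 kb of 258 sites (18.9%), similar to the 21.0% of the mirror group that had one of their own kind. A site of the mirror group lay within 10 kb of 84 estradiol-only sites (6.17%, 5.01 to 7.57), against 4.52% (4.25 to 4.81) of the regions in all 4 lists. It lay as near to 4.81% of regions listed in untreated cells, after E2 and after Dex+E2 but not after Dex. The interval of that share overlapped the interval of the estradiol-only sites. The share was higher, at 12.7% (9.66 to 16.4), for the 371 sites in all 3 hormone lists but not untreated. Estradiol-only sites in turn lay within 10 kb of 18.3% (14.7 to 22.6) of these 371 sites, and of 3.41% (3.17 to 3.67) of the regions in all 4 lists. The share was 4.18% (3.39 to 5.16) for the mirror group. It was 4.64% (3.75 to 5.73) for regions listed in untreated cells, after E2 and after Dex+E2 but not after Dex. Of the 371 sites, 15.4% (12.1 to 19.4) had another of their own kind within 10 kb.

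When sites up to 50 kb apart were chained, 1104 stood alone, 101 pairs formed, and 17 chains held 3 to 5 sites. The more compact of 2 chains of 5 was chr17:31820653-31859916, which spanned 39263 bp with densities of 7.03 to 21.1 after Dex+E2 and 6.20 to 15.4 after E2. Its strongest member was chr17:31826540-31827306, at 21.1 after Dex+E2 and 15.4 after E2. Inside the chain, chr17:31824898-31825770 was listed in all 4 libraries, at 37.2 after Dex+E2, 22.0 after E2, 10.3 after Dex and 16.6 in untreated cells. No other region there was listed without estradiol, and 1 further region, chr17:31839828-31840079, was in the E2 list alone at 6.20. The other chain of 5, chr14:26286949-26345901, was interspersed with 8 regions of all 4 lists. Its members had 10.9 to 31.3 after Dex+E2 and 6.60 to 16.2 after E2, led by chr14:26292314-26293124. A neighbour of all 4 lists in this chain, chr14:26335142-26336982, had 45.8 after Dex+E2, 12.2 after E2, 33.8 after Dex and 14.3 in untreated cells. A chain of 4, chr12:3094774-3104976, lay within 200 kb of the first listed region of its chromosome, with densities of 2.50 to 8.62 after Dex+E2 and 3.0 to 7.80 after E2 among regions of mixed listing.

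Regions listed in all 4 libraries were not used by the rule, although the same 4 libraries chose the sites. Their densities show how the surroundings of the sites behaved. Ratios were taken relative to the library medians, so a 2-fold call for E2 over untreated needs a deposited ratio of only 0.68. Such a call can therefore fall on a region with less deposited density after E2. Within 5 kb of a site the deposited medians were 10.8 after E2 and 25.8 in untreated cells. Over all regions in the 4 lists they were 10.2 after E2 and 30.1 in untreated cells. Of the 395 such regions within 5 kb of an estradiol-only site, 123 (31.1%, 26.8 to 35.9) were at least 2-fold higher in E2 than in untreated cells, beside 7.89% of all regions in the 4 lists. For Dex+E2 over Dex, which shares no library with that comparison, the count was 22 (5.57%, 3.71 to 8.29), beside 1.84%. Both shares were lower farther out: between 20 and 50 kb they were 12.1% for E2 over untreated and 1.42% for Dex+E2 over Dex, and beyond 500 kb they were 6.51% for E2 over untreated and 1.57% for Dex+E2 over Dex. Dex over untreated, which shares the untreated library with the first comparison, was also raised within 5 kb, at 80 of 395 regions (20.3%, 16.6 to 24.5) beside 6.69%. Near the mirror group, 522 regions within 5 kb gave 14.9% (12.1 to 18.3) for E2 over untreated, 2.49% (1.46 to 4.21) for Dex+E2 over Dex and 18.6% (15.5 to 22.1) for Dex over untreated. When all 4 lists were cut to equal length, the share for E2 over untreated near the sites was 18.7%. That setting also changed the regions in all 4 lists and their medians. The share over all such regions was not computed for it.

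**Figure D5:**
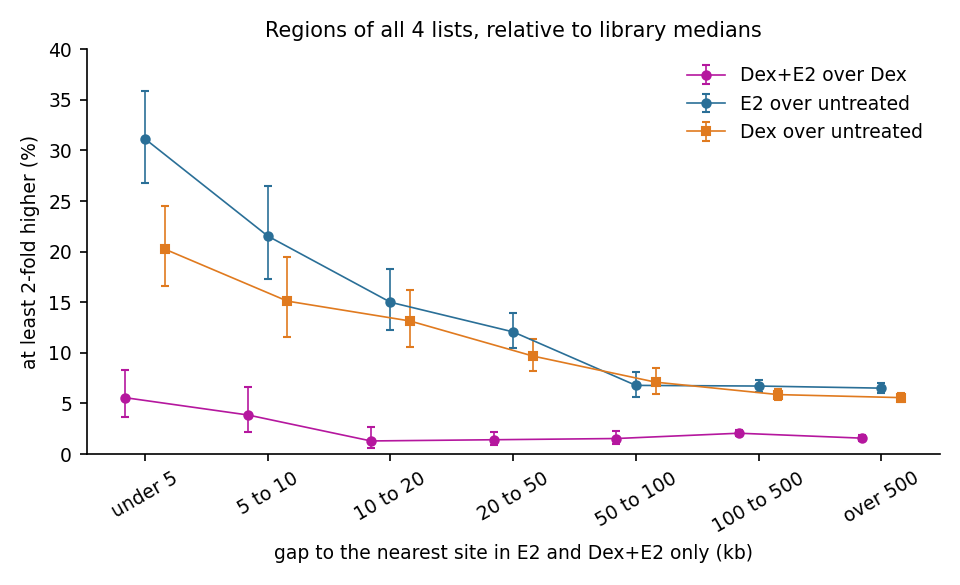
Share of regions listed in all 4 libraries that were at least 2-fold higher relative to the library medians (y axis, %, with Wilson 95% intervals) by their gap to the nearest estradiol-only site (x axis, kb), for Dex+E2 over Dex, E2 over untreated and Dex over untreated. Within 5 kb the shares are 5.57%, 31.1% and 20.3%, and beyond 500 kb E2 over untreated is at 6.51% and Dex+E2 over Dex at 1.57%.

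One class of region moved with this result. Regions of all 4 lists that kept 0.8 or more of the untreated density, as deposited, after each of the 3 treatments, a limit chosen after the data were examined, made up 77 of the 395 within 5 kb (19.5%, 15.9 to 23.7) and 3.94% of those farther away. Without this class, with medians taken over the rest, 48 of 318 regions within 5 kb (15.1%, 11.6 to 19.4) were 2-fold higher in E2 than in untreated cells, beside 4.34% of all the remaining regions. Dex+E2 over Dex then gave 18 (5.66%), beside 1.68%, and Dex over untreated 16 (5.03%, 3.12 to 8.02), beside 3.65%. The class is set by the same densities as these ratios. With medians over all regions in the 4 lists, a 2-fold call for Dex over untreated needs a deposited ratio of 0.98, past the limit of 0.8. One for E2 over untreated needs 0.68, so leaving out the class removes Dex calls the more readily. Over the rest the medians were 10.2 after E2 and 31.1 in untreated cells, so there the ratio needed for E2 is slightly lower. The shares for Dex and for E2 without the class therefore cannot be compared with each other. The part of the class in the shares was not tested.

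Of the 395 nearby regions, 15 (3.80%, 2.31 to 6.17) passed 2-fold for E2 over untreated as well as for Dex+E2 over Dex, beside 0.996% of all regions in the 4 lists. The pair of comparisons in which Dex was added was passed by 9 (2.28%, 1.20 to 4.27), beside 1.38%. Of the 15, 4 belonged to the class just described, and without that class 12 of 318 (3.77%) passed both, beside 0.848%. The leading region of the 15, and one of that class, was chr11:76343008-76343833, 4596 bp from its nearest estradiol-only site, with 51.3 after Dex+E2, 25.6 after E2, 12.0 after Dex and 12.0 in untreated cells. The region chr9:21494182-21495016 had 28.4 after Dex+E2, 19.0 after E2, 7.10 after Dex and 25.2 in untreated cells. Its deposited E2 density was below the untreated one, and only the ratio of E2 over untreated relative to the medians was raised. The same held at several more of the 15. Among them were chr4:45479953-45481055 (37.8 after E2, 53.8 in untreated cells) and chr4:134316163-134317368 (19.2 after E2, 27.0 in untreated cells). The remaining regions described in this paragraph had a higher deposited density after E2 than in untreated cells. At chr4:56431890-56433005, 1268 bp from a site, the densities were 38.8 after Dex+E2, 31.0 after E2, 12.5 after Dex and 25.8 in untreated cells. A region next to a site, chr14:75405439-75406153, also of that class, had 20.9 after Dex+E2, 19.0 after E2, 8.82 after Dex and 10.7 in untreated cells. These regions were named after their values were seen.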

How the data were processed

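The deposited data are lists of hypersensitive regions, 1 per library, for 7438 cells under 4 conditions. The submitters' processing notes name mm9 and, without its role, CASAVA 1.8, and the region caller is not given in the sources used here. The labels' extraction text mentions sonicated nuclei and no nuclease step. Maximum and average tag density per region are, per the file headers and values, signal that the authors scaled library by library. The lists add a deposited Z score and a deposited p-value of the region against its own library, and the p-value was not used. The Z score was used within a library, except that the 3 regions just outside the threshold were ranked across the Dex and untreated lists. Within 0.02 tags, every maximum density (100%) was a whole multiple of a constant step (0.227 for Dex+E2, 0.200 for E2, 0.245 for Dex, 0.255 for untreated), and that step was read as 1 tag. Read totals were not used.

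The end of a region was read as the first position after it, and a merged region took the highest value of its regions in each library. A call needed a 2-fold ratio. Shares have Wilson intervals, tags exact Poisson intervals, ratios exact binomial intervals and medians binomial order-statistic intervals, all at 95% and for counting error only. No p-value was computed: each condition had 1 library, regions of a library are not replicates, and an additive fit over the 2 by 2 layout of hormones, with the interaction as its error, was not run. The sites and the limits used were chosen with earlier results of these data known. Sites named individually are the 10 with the highest smaller density, the 5 highest and 5 lowest ratios in the upper quartile of smaller density, the 5 widest and those nearest the threshold. The functions were tested on simulated data. Gene starts and motifs were planned but not analysed, because the gene tables at hand belong to another build. The work was done with SciPy 1.17.1, pandas 2.3.3 and NumPy 2.4.6 under Python 3.11.15, and drawn with Matplotlib 3.10.9.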

Additional observations from a re-analysis of the deposited data

How the results depend on the processing

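The number of sites was 1361 with at least 1 shared bp, 1331 with regions within 150 bp joined, 1403 with lists of equal length, 1343 without chromosome X and 1745 when the Dex list was left out, against 1362. It moved to 602 with the denser 50% of each list, 411 with the denser 50% of the Dex+E2 and E2 lists and 3144 when the untreated list was left out. Requiring 1 shared bp, joining within 150 bp and leaving out chromosome X or the low-Z and first-region sites left the other 8 values within their counting intervals.

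The median log2 ratio of Dex+E2 over E2 changed sign relative to the library medians (−0.33). It was 0.40 with equal lists, 0.45 and 0.49 with the denser 50% of all and of the Dex+E2 and E2 lists, 0.23 without the untreated list, 0.33 for average density and 0.39 for the denser 50% of the sites. The share at least 2-fold higher was 11.8% and 11.9% with the denser 50% of all and of the Dex+E2 and E2 lists, 10.6% without the Dex list, 4.83% without the untreated list, 11.5% for average density, 0.808% relative to the medians, 26.7% with a limit of 1.5-fold and 10.8% for the denser 50% of the sites. The share at least 2-fold lower was 1.25% for average density, 1.62% relative to the medians and 0.441% with a limit of 1.5-fold. The causes were not tested.

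The median width was 623 bp with equal lists, 684 and 672 bp with the denser 50% of all and of the Dex+E2 and E2 lists, and 581 bp without the untreated list. Sites within 10 kb of a Dex or untreated region made up 59.2%, 65.4% and 77.4% in the first 3 of these settings, 67.9% without the Dex list and 56.7% without the untreated list. Sites within 50 kb of another made up 21.5% with equal lists, 15.8% with the denser 50% of the Dex+E2 and E2 lists, 28.2% without the Dex list and 30.4% without the untreated list. Regions of all 4 lists within 5 kb that were 2-fold higher in E2 than in untreated cells, relative to the medians, made up 18.7% with equal lists. They made up 42.6% without the Dex list, 25.9% without the untreated list and 15.1% without the class of regions at 0.8 of the untreated density. Leaving out the Dex or the untreated list changed the sites only, so the share over all regions in the 4 lists stayed 7.89%. It was 4.34% without the class and was not computed with equal lists. The share for Dex+E2 over Dex stayed within its counting interval in every setting run, at 4.15% to 6.06%. Other motif windows, motif mismatches and gene distances were not run, since no genome or annotation in mm9 was used here. No paired analysis by replicate number was possible because each condition had 1 library and no result comes from a test. The 2 pairs that differ by estradiol were given as separate comparisons. At the median site, 33 to 36 tags limit the precision of a ratio.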
